A study of Sus scrofa with 4 samples.

Results

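Scaffold31207 is a piece of an assembled pig genome that carries 8 gene models with reads, out of 18367 gene models in the whole data set. A gene model is a predicted gene, and a scaffold is a stretch of assembled sequence not placed here on a chromosome. The models are those whose identifier begins with evm.model.scaffold31207 followed by a model number, and they are called here by that number: models 1, 2, 3, 5, 6, 7, 8 and 9. Model number 4 is listed in none of the 4 tables. The scaffold was chosen by its RPKM values, because most of its models were higher in kidney than in the other tissues. The kidney values below are therefore a description of what chose the models and carry no test.

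RNA was sequenced from pigs (Sus scrofa) of the Tibetan breed, with 1 library each for kidney, heart, lung and liver and no treatment named. The labels give neither age nor sex, nor whether the tissues came from the same animal. The kidney library held 5486480 reads on gene models, the liver library 4090775, the lung library 8853076 and the heart library 14062622. Levels are in RPKM, a read count corrected for the length of the model and for the library total. Tissues have no replicates, so the 95% intervals in parentheses are exact intervals of counting error only.

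Kidney tissue is built mainly of tubule cells that take salts, sugars and other solutes back from the filtrate, and it is rich in transporters and in enzymes that modify metabolites and foreign compounds. Genes of such families often lie side by side in the genome, as copies that arose by tandem duplication, and neighbours of this kind can be expressed in the same tissue or in different ones. The identifiers carry no gene names: 0 of 18367 matched the pig reference tables, so the function of each model is unknown here, no sequence is shown, and the tissue labels could not be checked against marker genes. The order of the model numbers is taken as a name and not as a measured position.

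All 8 models had their highest RPKM in the kidney library, against 5324 of the 18367 models overall (29.0%). Model 6 had the highest kidney level, at 122 RPKM, beside 3.31 in lung and 1.90 in heart. Models 5, 7, 3 and 8 stood between 47.9 and 15.6 RPKM in kidney and at 1.11 RPKM or less in each other library. Model 1 was the exception in breadth, with reads in every library and a heart level close to that of kidney. Models 9 and 2 were the lowest of the scaffold in kidney, at 8.73 and 7.20 RPKM, levels above 51.8% and 48.7% of all models in that library.

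**Figure D1:**
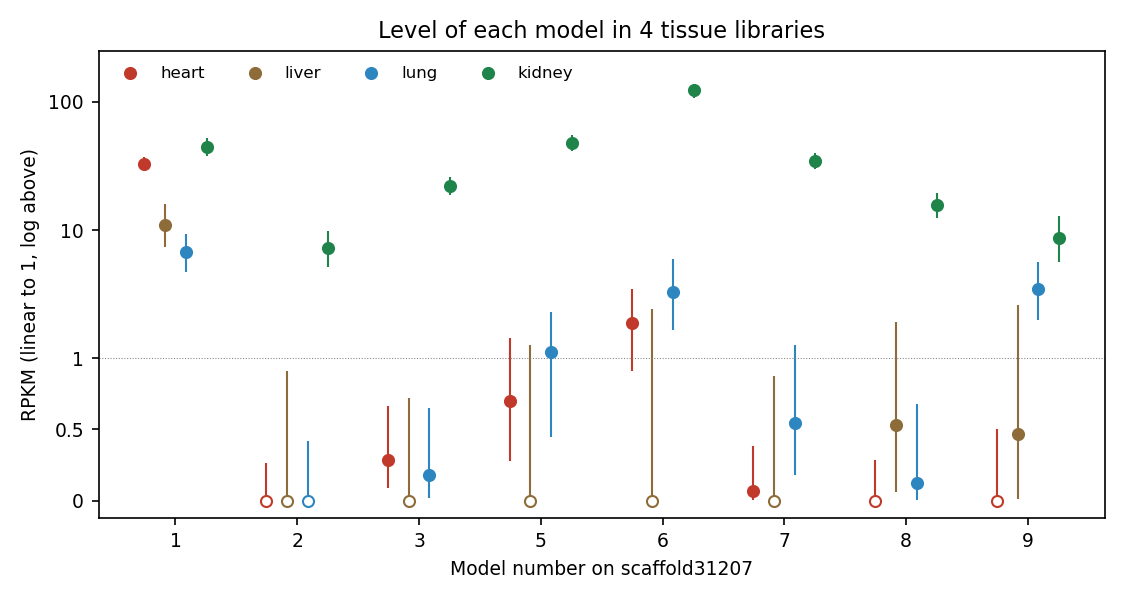
RPKM of the 8 models (horizontal axis, model number) in the 4 tissue libraries (colours); the vertical axis is linear up to 1 RPKM and logarithmic above, bars are exact 95% Poisson intervals, and open circles mark 0 reads. Kidney is the highest point for every model, from 7.20 RPKM in model 2 to 122 in model 6, and model 1 is the one model with more than 4 RPKM in another library.

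Model 6, the shortest at 375 bases, had 122 RPKM in kidney (108 to 139), 3.31 in lung (1.65 to 5.93), 1.90 in heart (0.909 to 3.49) and 0 reads in liver. These are 252, 11, 10 and 0 reads. The kidney level lay above 93.4% of all models in that library, and kidney was the one library in which model 6 passed 4 RPKM. Kidney exceeded lung 37.0-fold (20.3 to 75.0) and heart 64.6-fold (34.5 to 136). Against a floor of 3 counts for the absent liver reads, kidney was at least 62.6-fold higher than liver. Here and below, such bounds divide the measured kidney level by the floor and are not limits of a counting interval.

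Model 5, of 711 bases, had 47.9 RPKM in kidney (41.3 to 55.3), 1.11 in lung (0.447 to 2.29), 0.700 in heart (0.281 to 1.44) and 0 reads in liver. The intervals of lung and heart overlapped, each resting on 7 reads, and kidney with 187 reads stood clear of both. The fold of kidney over lung was 43.1 (20.5 to 109), that over heart was 68.5 (32.6 to 173), and kidney was at least 46.5-fold higher than liver.

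Model 7, of 1032 bases, had 34.6 RPKM in kidney (29.9 to 39.8), 0.547 in lung (0.178 to 1.28), 0.0689 in heart (0.00174 to 0.384) and 0 reads in liver. The heart value is 1 read and the lung value 5 reads, against 196 in kidney. Kidney was 63.3-fold above lung (26.6 to 197), and at least 48.7-fold higher than liver. For heart the ratio was 502 with an interval of 89.1 to 19943, whose width follows from that single read.

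Model 3, the longest at 1251 bases, had 22.0 RPKM in kidney (18.6 to 25.8), 0.284 in heart (0.0923 to 0.663), 0.181 in lung (0.0219 to 0.652) and 0 reads in liver. Of the 5 models that were strongly higher in kidney, it was the one with its next highest level in heart, but on 5 reads there against 2 in lung, with a heart to lung ratio of 1.57 (0.258 to 16.5). With 151 reads, kidney exceeded heart 77.4-fold (32.4 to 242), exceeded lung 122-fold (33.1 to 1015) and was at least 37.5-fold higher than liver.

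Model 8, of 924 bases, had 15.6 RPKM in kidney (12.3 to 19.4), 0.529 in liver (0.0641 to 1.91), 0.122 in lung (0.00309 to 0.681) and 0 reads in heart. It was the one model of the scaffold with liver above both heart and lung, on 2 liver reads and 1 lung read. Kidney, with 79 reads, was 29.5-fold above liver (7.89 to 247), 127-fold above lung (22.2 to 5098) and at least 67.5-fold higher than heart. The lower limit of 7.89 is the least firm among the measured ratios of these 5 models.

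Model 2, of 987 bases, had 39 reads in kidney, a level of 7.20 RPKM (5.12 to 9.85), and 0 reads in each of the other libraries. It was the one model here with reads in kidney alone. By the floor of 3 counts, its kidney level was at least 33.3-fold higher than heart, at least 21.0-fold higher than lung and at least 9.69-fold higher than liver. These bounds take the 39 kidney reads without their counting error, and they differ between libraries by depth. Model 9, of 522 bases, had 25 kidney reads, or 8.73 RPKM (5.65 to 12.9), beside 3.46 in lung (1.98 to 5.62), 0.468 in liver (0.0119 to 2.61) and 0 reads in heart. Only model 1 had more lung reads than its 16, and the kidney to lung ratio was 2.52 (1.29 to 5.05), an interval that ended below every measured ratio interval of models 3, 5, 6, 7 and 8.

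Model 1, of 620 bases, differed from its neighbours. Its level was 44.7 RPKM in kidney (37.9 to 52.4), 32.9 in heart (29.2 to 37.0), 11.0 in liver (7.34 to 16.0) and 6.74 in lung (4.75 to 9.29). It was the one model of the scaffold with reads in all 4 libraries, a property shared by 13426 models overall (73.1%). Kidney was 1.36-fold above heart (1.11 to 1.66), 4.05-fold above liver (2.69 to 6.29) and 6.63-fold above lung (4.60 to 9.77). Heart in turn stood 2.98-fold above liver (2.02 to 4.57) and 4.88-fold above lung (3.46 to 7.08), while the lung to liver ratio of 0.611 had an interval reaching 1.04. Each library was also divided by its median ratio to the geometric mean of the 4. Model 1 was then at 35.3 in kidney and 35.5 in heart, so the place of kidney above heart depended on the scaling. Liver was then at 18.0 and lung at 4.88, so the folds among heart, liver and lung also depended on the scaling. The order of heart, liver and lung did not change. That scaling lowers kidney by 0.45 against heart and by 1.04 against liver on the log2 scale, and raises it by 0.13 against lung, for every model alike. Model 1 was also the one model of the scaffold whose length was not a multiple of 3. The other 7 lengths were, as were 89.5% of all model lengths.

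By the rule used to call a model kidney-enriched, at least 10 RPKM in kidney and an RPKM + 1 at least 5 times that of the highest other library, 5 of the 8 models were called: models 3, 5, 6, 7 and 8. Over all models the same rule called 2.00% (368 of 18367). Since the scaffold was chosen for this contrast, nothing is read from the difference between these shares. On the RPKM + 1 scale, which understates folds of low models, the called models stood 10.8-fold (model 8) to 28.6-fold (model 6) above their highest other library. The lowest called model by level was model 8, at 15.6 RPKM, with a counting interval (12.3 to 19.4) above 10. Under the level limit were model 9 at 8.73 and model 2 at 7.20. The counting interval of model 9 spans 10 RPKM, and that of model 2 ends below it. By fold, model 2 would have passed at 8.20, whereas model 9 at 2.18 and model 1 at 1.35 would not. When the interval limits of kidney and of the other libraries are combined, model 8 ranged from 4.58-fold to 19.2-fold and so reached below the limit of 5. Model 2, which was not called, ranged from 3.20-fold to 10.8-fold and also reached below 5. The lowest limit among models 3, 5, 6 and 7 was 11.4-fold. All 8 were highest in kidney, so none of them could be called enriched in heart, liver or lung. The same rule called 2.08%, 1.56% and 3.67% of all models in those libraries, and nothing is read from the 0 of 8.

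**Figure D2:**
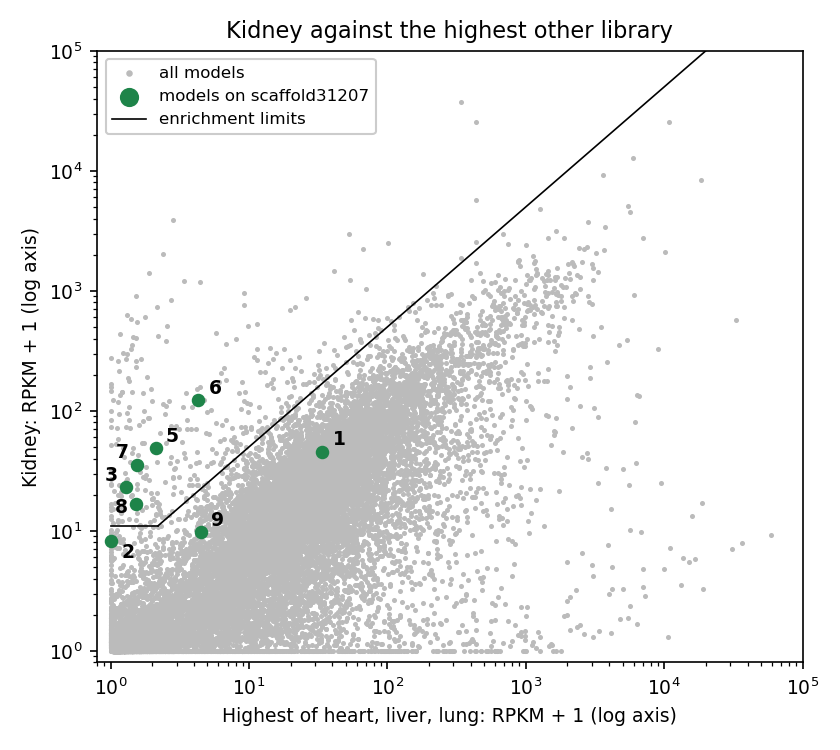
Each point is 1 gene model, with RPKM + 1 in kidney (vertical, log axis) against the highest RPKM + 1 of heart, liver and lung (horizontal, log axis); green points are the scaffold31207 models by number and black lines are the limits of the enrichment rule. Models 3, 5, 6, 7 and 8 lie above the lines, model 2 lies just below the level limit at the left edge, and models 1 and 9 lie among the bulk of models.

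The kidney levels of the 8 models spanned 17-fold, and most neighbours in their order differed beyond counting error. Model 6 exceeded model 5 2.56-fold (2.11 to 3.10). Models 5 and 1 could not be separated, with a ratio of 1.07 (0.861 to 1.34), and neither could models 9 and 2 at the lower end, with a ratio of 1.21 (0.703 to 2.05). Between these, model 1 exceeded model 7 1.29-fold (1.04 to 1.60), model 7 exceeded model 3 1.57-fold (1.27 to 1.96), model 3 exceeded model 8 1.41-fold (1.07 to 1.88) and model 8 exceeded model 9 1.79-fold (1.13 to 2.92). Model 6 alone made up 40.4% of the summed kidney RPKM of the scaffold and 23.3% of its 1081 kidney reads, the gap between the shares reflecting its short length. Model 7 was second by reads, with 18.1%, but stood below models 6, 5 and 1 by RPKM.

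In the other libraries the order could be read only in part. In lung, model 1 was above model 9 by 1.95-fold (1.06 to 3.75), models 9 and 6 could not be separated at a ratio of 1.04 (0.455 to 2.49), and model 6 was above model 5 by 2.98-fold (1.05 to 9.06). All lower places in lung rested on 7 reads or fewer. In heart, model 1 was 17.4-fold above model 6 (9.30 to 36.6), and no further step between neighbours had an interval clear of 1. Models 6 and 5 stood in that order in kidney, heart and lung, whereas model 9 was seventh in kidney and second in lung.

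Among the 3 other tissues, lung was the highest for 4 models (5, 6, 7 and 9), heart for 2 (1 and 3) and liver for 1 (8), with model 2 at 0 in all of them. Over all models lung was the highest of the 3 in 57.8%, heart in 26.7% and liver in 14.1%, so 4, 2 and 1 of 8 are each near their background. Apart from models 1 and 9 these places rest on 11 reads or fewer. In models 5 and 6 lung and heart did not differ beyond counting error, with heart to lung ratios of 0.630 (0.188 to 2.10) and 0.572 (0.218 to 1.48). Model 9 did differ, since its counting intervals did not overlap. They ran from 1.98 to 5.62 RPKM in lung, on 16 reads, and up to 0.503 in heart, with 0 reads. The floor of 3 counts in heart stood at 0.118 of the lung level, which is not a limit of a counting interval.

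Liver was the library with the fewest reads on the scaffold, and it was also the smallest library. By share of library reads it was not separated from lung. The shares were 0.000758% in liver (0.000515 to 0.00108) and 0.000892% in lung (0.000706 to 0.00111). Models 2, 3, 5, 6 and 7 had 0 liver reads, and models 8 and 9 had 2 and 1. Over all models 21.1% had 0 liver reads, and of those with reads in kidney 12.9% did. At the kidney rate, the depth of the liver library would have given 188 reads for model 6, 146 for model 7, 139 for model 5, 113 for model 3 and 29.1 for model 2. The liver library was thus deep enough to show levels like those of kidney, but low levels could be missed in it. The reads of models 8 and 9 there came to 0.529 and 0.468 RPKM. The exact intervals of 0 liver reads reach 2.40 RPKM for model 6, 1.27 for model 5 and 0.721 for model 3, and the floor of 3 counts, on which the lower bounds of the liver folds rest, is smaller, at 1.96, 1.03 and 0.586 RPKM. Among all 368 kidney-enriched models 92 (25.0%) had 0 liver reads, against 4 of the 5 enriched models of the scaffold. Of the same 368 models, 70 had 0 reads in heart (19.0%) and 57 in lung (15.5%), against 1 and 0 of the 5. No test was run on these counts, since the models share a scaffold and were chosen by the same libraries.

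**Figure D3:**
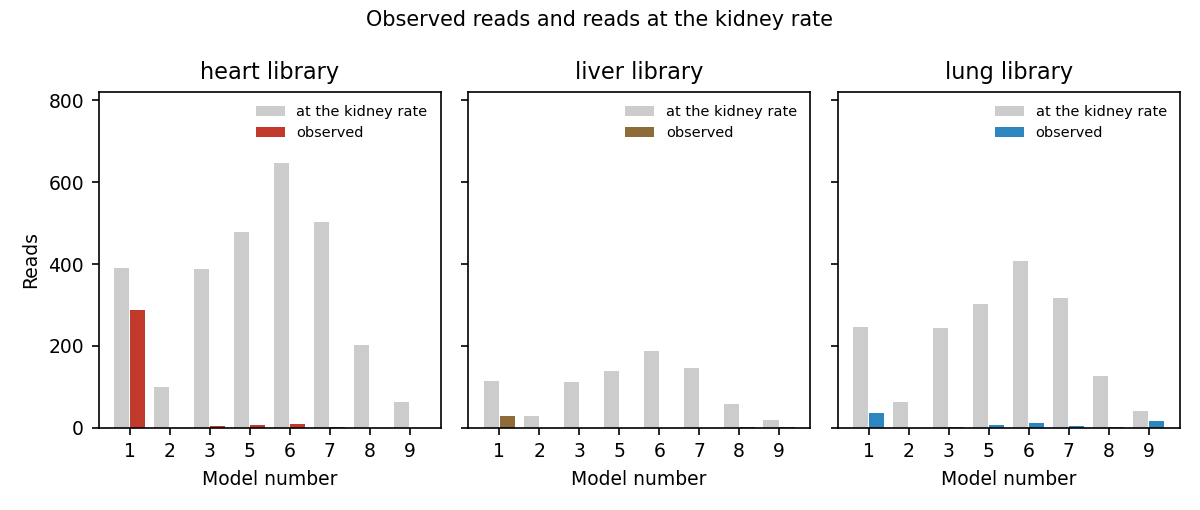
Reads observed on each of the 8 models (coloured bars) in the heart, liver and lung libraries, beside the reads that the kidney rate would give at the depth of that library (grey bars); the vertical axis is in reads and starts at 0. Model 1 in heart, with 287 reads observed and 390 at the kidney rate, comes nearest to the kidney rate, and the liver panel has 28 reads on model 1 and at most 2 on any other model.

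Summed over the 8 models, the scaffold took 1081 reads in kidney, 0.0197% of that library (0.0185 to 0.0209), 310 in heart, 79 in lung and 31 in liver. Model 1 held 287 of the 310 reads in heart and 28 of the 31 in liver, but 37 of the 79 in lung, where the other models together held more. Without model 1 the sums were 929 reads in kidney, 42 in lung, 23 in heart and 3 in liver. In summed RPKM these 7 models stood at 259 in kidney, 8.74 in lung, 2.95 in heart and 0.997 in liver. In a bulk tissue library, a lower level can come from fewer cells of a type or from less RNA per cell, and these cannot be told apart. How reads with several matches, or reads of overlapping models, were assigned is not given in the sources used here. Whether neighbouring models share reads was not tested.

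Other scaffolds gave the setting for this group. Of 1084 scaffolds with 5 or more models, 857 had no kidney-enriched model, 183 had 1 and 44 had 2 or more. Scaffold31207, with 5 of 8 (62.5%), had the highest share and the highest count among them, by the same contrast for which it was chosen. The next highest share was 40.0% (scaffold42922, 2 of 5 models), and the highest count on another scaffold was 4. The 368 kidney-enriched models lay on 301 scaffolds in all. Scaffold46278, with 126 models, had 3 enriched in kidney and 10 in lung, and scaffold8242, with 38 models, had 0 in kidney and 7 in liver. Over all models the rule called 2.00% in kidney, 3.67% in lung and 1.56% in liver. By highest tissue, 37 of the 126 and 8 of the 38 models were highest in kidney, against all 8 on scaffold31207 and 29.0% of all models. The models of scaffold31207 were short, with a median length of 817.5 bases, against 1219.5 for all kidney-enriched models and 1278 for all models.

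**Figure D4:**
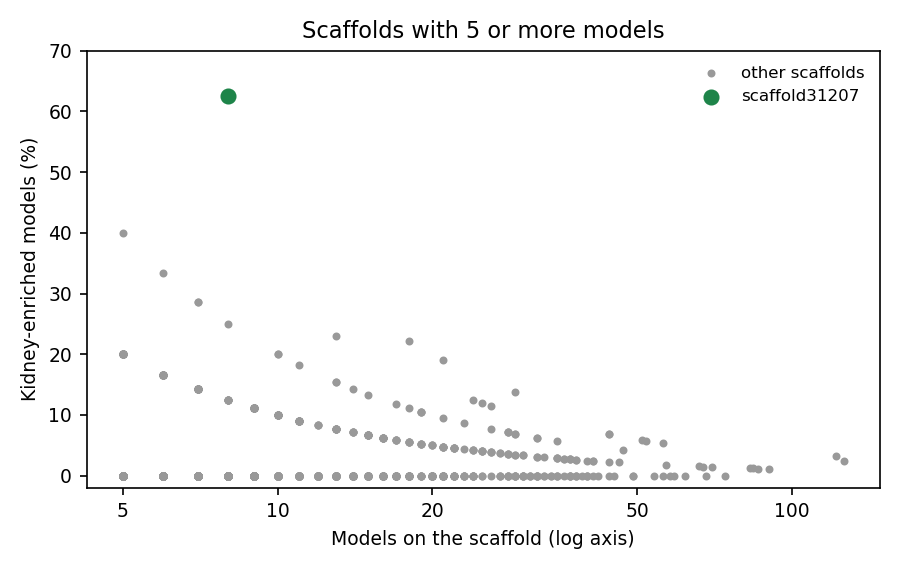
Each point is a scaffold with 5 or more gene models; the horizontal axis is the number of models (log axis) and the vertical axis is the percentage of them that were kidney-enriched. Scaffold31207 is the green point at 8 models and 62.5%, above the next highest share of 40.0%, and many of the 857 scaffolds at 0 lie on top of each other.

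Across the 4 tissues, the 5 enriched models had a mean profile in log2(RPKM + 1), centred on the mean of each model, of 3.56 in kidney, -0.85 in lung, -1.14 in heart and -1.57 in liver. Models 7 and 5, which are part of that mean, lay nearest to it, at distances of 0.28 and 0.35. Models 9 and 1, which are not part of it, lay farthest, at 2.44 and 3.20. Since the mean was formed from the enriched models, these distances are a description only. Of 8387 models elsewhere with 10 RPKM or more in kidney, the nearest to this profile by Euclidean distance was evm.model.scaffold1777.10, at a distance of 0.035. It had 52.6 RPKM in kidney, 1.52 in lung, 1.11 in heart and 0.547 in liver. These are 129, 6, 7 and 1 reads, so its liver value is a single read. The next, evm.model.scaffold45857.7, was at 0.14, with 34.1 RPKM in kidney, 0.487 in lung, 0.223 in heart and 0 reads in liver. The order by distance was not tested against counting error. Likeness over 4 libraries, of which 3 are low, describes levels only.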

How the data were processed

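Total RNA of 4 tissues was sequenced, with 1 library each. The aligner TopHat is named, without a version, in the submitters' processing notes. Neither the counter nor the build or annotation is given in the sources used here. Per the file headers, the deposited tables hold read counts per gene model, RPKM, model length and library total. The deposited RPKM was recomputed from those columns to a relative tolerance of 1e-12. Models missing from a table were taken as 0 reads.

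From these values came exact Poisson intervals of counts, conditional binomial (Clopper-Pearson) intervals of ratios and shares, and floors of 3 counts. The intervals cover counting error only, since each tissue has 1 library. Without molecular identifiers reads can repeat a molecule, which the intervals do not take into account. For model 1, of 620 bases, a single read came to 0.294 RPKM in the kidney library, 0.394 in liver, 0.182 in lung and 0.115 in heart. No test between tissues was possible. The rule was tested on simulated data, which shows only that it works as written. Named models were all 8 of the scaffold and the 2 nearest in profile. Models and rules were chosen with earlier results of these data known. Alternatives varied pseudocount, scaling (median ratio over 10247 models above 1 RPKM in all libraries, or equal summed RPKM), fold, level, depth and missing models. Computations ran in Python 3.11.15 with scipy 1.17.1, numpy 2.4.6 and pandas 2.3.3, and plots in matplotlib 3.10.9.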

Additional observations from a re-analysis of the deposited data

How the results depend on the processing

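No paired analysis was possible because the tissues have a single library each, and none could be left out. The count of 5 enriched models on the scaffold was 5 under 7 of the 9 alternatives (pseudocounts of 0.1 and 0.01, median-ratio and TPM-like scaling, 3-fold and 10-fold minimums, thinning to the liver total) and 6, with model 2 added, at a minimum of 1 RPKM. Keeping only models with reads in all 4 libraries gave 0, since model 1 alone has them. Over all models, the 3-fold minimum called 624, the 10-fold minimum 210 and the 1 RPKM minimum 412, against 368 by the main rule. Median-ratio scaling called 289, and keeping only models with reads in all 4 libraries called 229. The remaining alternatives called from 331 to 387. Because the scaffold was chosen for this contrast, nothing is read from the unchanged count of 5. As a share of summed RPKM in place of reads, the scaffold took 0.0335% in kidney (from 0.0197%), 0.00437% in heart (from 0.0022%), 0.00208% in lung (from 0.000892%) and 0.00149% in liver (from 0.000758%). The count of models with liver above lung and heart was 1 under 3 alternatives. The log2 ratio of kidney to the highest other library, in RPKM plus pseudocount, had 40 alternative values. Of these, 29 stayed within the combined interval limits of kidney and the other libraries, which are not counting intervals of a ratio. Another 10 moved, all under the lower pseudocounts. Under median-ratio scaling, the log2 ratio of model 1 changed sign, to -0.0095 from 0.43.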
